A study of Mus musculus with 36 samples.

Results

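The mRNAs described here encode the nuclear subunits of respiratory complex I, measured in mouse gastrocnemius, the large calf muscle. All rows of the expression table whose symbol is Ndufa, Ndufb, Ndufc, Ndufs or Ndufv followed by a number (with Ndufa4l2), together with Ndufab1, were taken, and the assembly factors named Ndufaf were left out. This gave 38 of 24319 symbols. All 38 reached a mean of 1 FPKM over the libraries and were therefore among the 10837 genes tested. FPKM counts sequenced fragments relative to transcript length and to the size of the library. Of these, 36 are subunits of complex I. Ndufa4, first described with complex I, is now assigned to complex IV, and Ndufa4l2 is its paralogue, so both are given separately. Ndufb1 and the mitochondrially encoded ND subunits are not analysed here.

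Muscle came from wild-type mice (WT) and from mice labelled Bmal1hep-/-, which lack Bmal1, an activator within the circadian clock, in liver. It was collected at zeitgeber time (ZT) 0, 4, 8, 12, 16 and 20, hours counted from lights on, with 3 biological replicates in each of 12 groups and 36 libraries in all. Strain, age, sex, feeding and the driver of the deletion were not stated in the labels. The deletion is labelled as hepatic, so muscle mRNA does not check it. The title of the series raises the question of how the liver clock bears on rhythms of gene expression and on mitochondria in muscle.

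Complex I is the entry point of the respiratory chain. It takes electrons from NADH at the tip of its matrix arm, passes them along iron-sulphur clusters to ubiquinone, and pumps protons through its membrane arm. The catalytic chain sits in core subunits of the NADH-oxidising N module and the quinone-reducing Q module. Accessory subunits surround them and are needed for assembly and stability. Skeletal muscle is rich in mitochondria, and the genes of the nuclear subunits are classical targets of regulators such as NRF1, GABP and the ERR receptors acting with PGC-1 coactivators.

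The promoters of 4 genes are shown because of what the data below say of them or because they hold a motif of interest. They are the 250 bases upstream of the RefSeq start (build GRCm38.p6), 5′ to 3′ on the strand of the gene, with matches to the searched motifs in capitals. Ndufb4, which had the smallest p of all 38 in the genotype comparison, lies at chr16:37654369-37654618 on the minus strand, with matches to the NRF1 motif.
Ndufb4: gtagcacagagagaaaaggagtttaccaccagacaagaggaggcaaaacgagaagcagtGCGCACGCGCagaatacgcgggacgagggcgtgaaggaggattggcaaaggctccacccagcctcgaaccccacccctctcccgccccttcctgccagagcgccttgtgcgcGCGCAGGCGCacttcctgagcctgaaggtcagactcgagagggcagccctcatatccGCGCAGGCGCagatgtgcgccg
Ndufv1, a core subunit, and Ndufa7, an accessory subunit of the matrix arm, were the only members with a CACGTG E-box, the motif bound by the BMAL1 and CLOCK pair. Their windows lie at chr19:4012756-4013005 on the minus strand and chr17:33824322-33824571 on the plus strand.
Ndufv1: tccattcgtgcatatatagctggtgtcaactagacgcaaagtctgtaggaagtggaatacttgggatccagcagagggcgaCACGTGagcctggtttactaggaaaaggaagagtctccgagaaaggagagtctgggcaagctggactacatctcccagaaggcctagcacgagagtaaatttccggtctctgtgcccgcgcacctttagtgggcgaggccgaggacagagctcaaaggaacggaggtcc
Ndufa7: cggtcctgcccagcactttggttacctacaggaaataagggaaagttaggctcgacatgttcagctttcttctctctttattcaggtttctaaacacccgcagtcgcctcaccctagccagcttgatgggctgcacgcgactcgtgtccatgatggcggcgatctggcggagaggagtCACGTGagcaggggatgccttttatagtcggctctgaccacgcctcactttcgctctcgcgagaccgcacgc
Ndufb3, whose 24 h rhythm in WT had the smallest p of the 38, lies at chr1:58586147-58586396 on the plus strand and held none of the searched motifs.
Ndufb3: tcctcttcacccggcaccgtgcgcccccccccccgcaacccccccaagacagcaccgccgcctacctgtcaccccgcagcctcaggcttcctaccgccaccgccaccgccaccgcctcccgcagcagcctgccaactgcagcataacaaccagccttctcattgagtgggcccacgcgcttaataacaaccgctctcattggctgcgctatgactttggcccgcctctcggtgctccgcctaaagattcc

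Promoters were found for 33 of the 38 genes, and 13 of these held at least 1 of 8 motifs searched on both strands. The NRF1 motif, GCGCA and GCGC around any 1 base, was in 6 of 33 promoters (18.2%), those of Ndufa11, Ndufa5, Ndufa8, Ndufb4, Ndufs5 and Ndufs6, against 9.95% of the promoters of tested genes and 4.23% of all promoters in the table. The CREB motif TGACGTCA was in 3 (9.09%; tested genes 3.18%), and the ETS motif CCGGAAG bound by GABP was in 3 (9.09%; tested genes 16.2%). The E-box was in 2 (6.06%), against 10.4% of tested genes. The D-box TTATGNAA was in 1, that of Ndufa5, and the ERR, YY1 and ROR/REV-ERB motifs were in 0. These are matches of letters in a short window and do not show binding.

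Complex I mRNAs were among the most abundant of the muscle. The median of the 36 subunit means was 333.5 FPKM, against 7.60 FPKM over all genes tested, and 35 of the 36 were above 100 FPKM. Only 2.20% of tested genes had a mean above the subunit median. The order of the subunits was similar from library to library, with a median Spearman's rho of 0.960 between pairs of libraries over the 36 subunits and a lowest of 0.711. The FPKM of the 36 subunits summed to between 9884 and 23466 per library.

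Levels differed 25.5-fold between subunits. Ndufa3, a small subunit of the proximal membrane arm, had the highest mean of the 36 (1487 FPKM) and took 9.93% of the subunit sum. Ndufb9, a distal membrane arm subunit, followed with 826 FPKM. Ndufa11, a membrane arm subunit of the TIM17 family fold, had the lowest (58.2 FPKM), below Ndufs4, a matrix arm subunit whose loss causes Leigh syndrome in humans (110.0 FPKM). FPKM are scaled to length, within the limits of the transcript models used. Levels still moved with transcript length between libraries, as described below, so comparisons of short with long mRNAs are approximate. Several subunits have near-identical copies in the genome, and reads of those copies could have been counted with them.

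The core subunits of the N module were at lower and steadier levels than most. Ndufv1, which carries the flavin that accepts electrons from NADH, ranged over the 18 WT libraries from 223 to 288 FPKM (median 256) and over the 18 Bmal1hep-/- libraries from 181 to 309.8 (median 238). Ndufv2, which holds an iron-sulphur cluster beside it, ranged from 185 to 248 (median 208) in WT and from 166 to 255 (median 209.8) in Bmal1hep-/-. Ndufs1, the largest subunit and carrier of several clusters, ranged from 145 to 194 (median 164) in WT and from 126 to 190 (median 154) in Bmal1hep-/-. For each, the libraries of the genotypes overlapped.

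The Q module core subunits spanned a wider range of levels. Ndufs7, which carries the last cluster before ubiquinone, ranged from 541 to 983 FPKM (median 701) in WT and from 627 to 1114 (median 689) in Bmal1hep-/-. It was the most abundant mRNA of the module, and the libraries of the genotypes overlapped. Ndufs3 had medians of 351 in both genotypes, with ranges of 316 to 406 and 264 to 468, and Ndufs8 had medians of 217 and 225, with ranges of 182 to 296 and 185 to 338. Mean levels of the N module ran from 159 to 249 FPKM and those of the Q module from 229 to 730.

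Among the accessory subunits, means ran from 110.0 to 552 FPKM in the matrix arm (9 genes), from 58.2 to 1487 in the proximal membrane arm (9 genes) and from 204 to 826 in the distal membrane arm (11 genes). Ndufa4 was the most abundant of the 38 at 1765 FPKM, from 1298 to 2140 in WT and from 1294 to 2705 in Bmal1hep-/-. Ndufa4l2, a hypoxia-induced gene in many tissues, was the least abundant at 11.6 FPKM, 152-fold below Ndufa4.

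**Figure D1:**
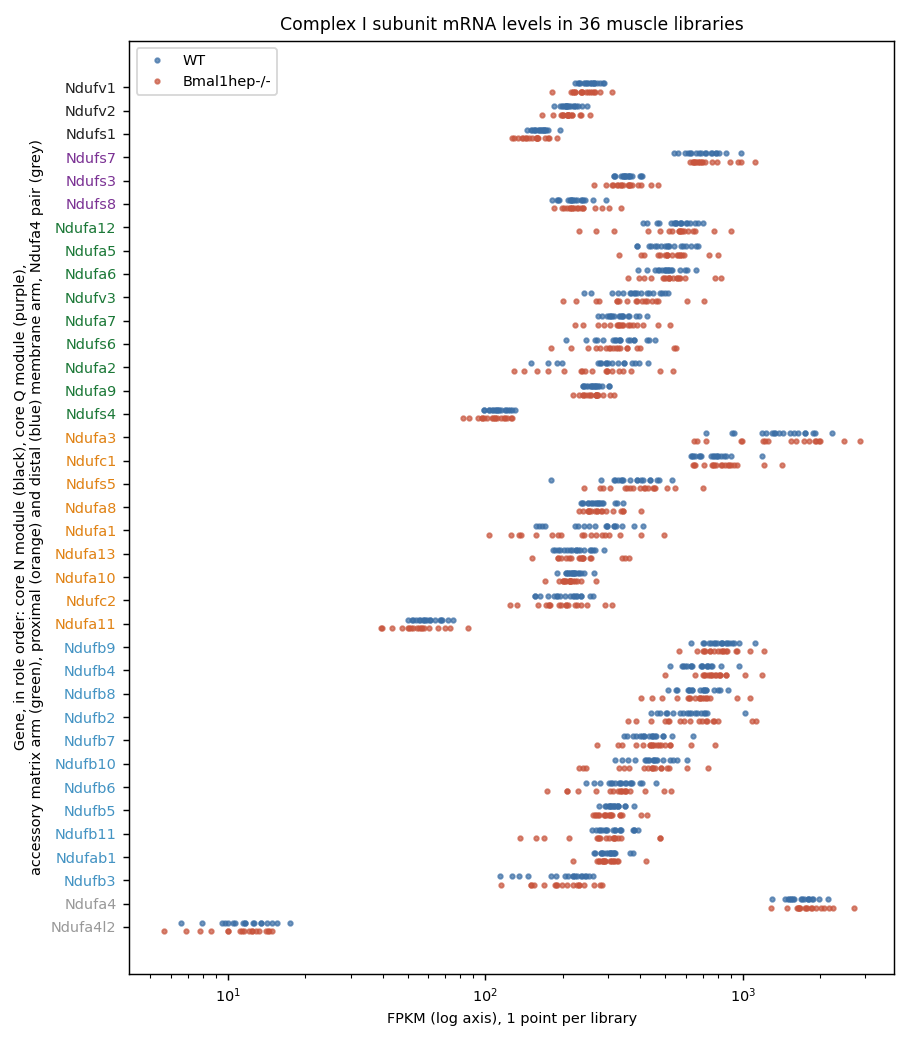
FPKM (log axis) of 37 of the genes, 1 point per library, WT in blue and Bmal1hep-/- in red, with genes grouped by role. The genotypes overlap for every gene shown, and Ndufa4 and Ndufa3 lie highest and Ndufa4l2 lowest. The red points spread more widely than the blue for most genes, short and long. Examples are Ndufa1 (SD 102 against 74.8 FPKM) and Ndufs1 (17.1 against 11.3).

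Replicates of the same group differed more for complex I genes than for most genes. The median standard deviation (SD) within groups was 0.25 on the log2 scale over the 38, against 0.18 over all genes tested. It was largest for Ndufa3 (0.50), Ndufa1 (0.50) and Ndufa2 (0.46), and smallest for Ndufa9 (0.12), Ndufv2 (0.12) and Ndufa10 (0.13). Ndufa1, an early building block of the membrane arm, ranged from 103 to 493 FPKM over the Bmal1hep-/- libraries, whereas Ndufa9, which binds near the quinone site, ranged from 219 to 316. In the same libraries Ndufa2, a matrix arm subunit with a thioredoxin fold, ranged from 129 to 534, and Ndufa10, a membrane arm subunit with a nucleoside kinase fold, from 171 to 268.

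The genes moved up and down together between libraries, and the movement followed transcript length. For each library, the Spearman correlation between transcript length and the deviation of each gene from its mean over all libraries was taken across genes as a length trend. It ran from -0.59 in Bmal1hep-/- ZT12 replicate 2, where short mRNAs were relatively high, to 0.40 in Bmal1hep-/- ZT8 replicate 1. Over the 36 libraries the median deviation of the 36 subunits went with this trend at a Pearson's r of -0.87 (Spearman's rho -0.85), and at -0.82 without the 2 libraries farthest from the median trend. Within WT r was -0.88 (18 libraries) and within Bmal1hep-/- -0.90 (18 libraries). Both measures come from the same libraries, and the subunits are themselves short, with a median length of 873 bases against 2812 for all tested genes.

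Of the 38 genes, 37 fell as the length trend rose. The exception was Ndufs1, the longest of the 38 by annotated length (2626 bases), which rose with it (r = 0.65). The ratio of Ndufs1 to Ndufa3 ran from 0.047 in Bmal1hep-/- ZT12 replicate 2 to 0.271 in Bmal1hep-/- ZT8 replicate 1, although both proteins belong to the same complex. Ndufa3 had the steepest slope, falling by 0.14 on the log2 scale for each 0.1 of trend. A pair of genes with long annotated lengths did not follow the order of lengths: Ndufb2 (2413 bases) fell by 0.11 and Ndufab1 (2448 bases) by 0.043. Which of their transcripts the muscle held is not known from FPKM per gene.

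**Figure D2:**
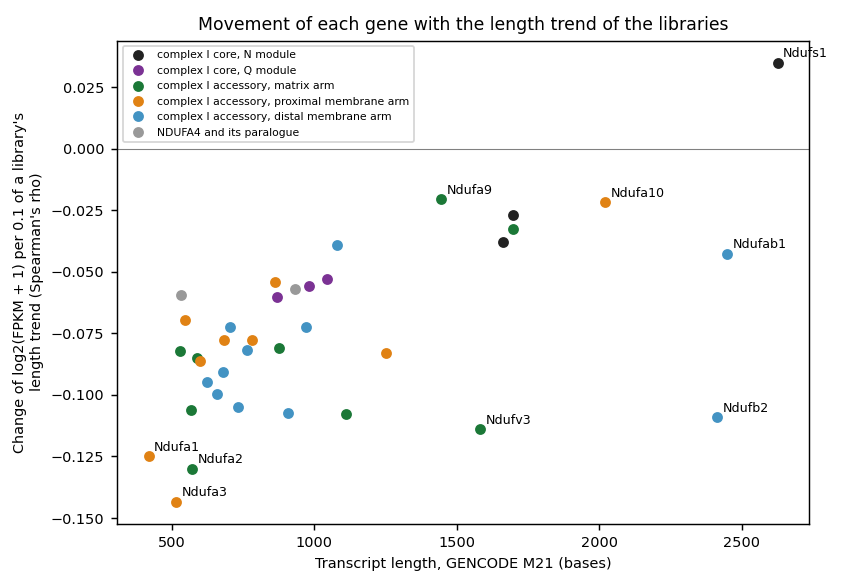
Change of log2(FPKM + 1) per 0.1 of a library's length trend (y axis) against transcript length in bases (x axis), 1 point for each of 37 genes, coloured by role. Short mRNAs such as Ndufa3, Ndufa1 and Ndufa2 have the steepest negative slopes, and Ndufs1 is the only gene above 0.

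When the length trend of each library was removed, the spread of complex I fell. The within-group SD of the subunit median went from 0.22 to 0.087 on the log2 scale, and the within-group SD was lower for 38 of the 38 genes, with a median of 0.14 in place of 0.25. The same median over all genes with a length went from 0.18 to 0.16. The range of library medians narrowed from between -0.51 and 0.63 to between -0.33 and 0.20. Whole muscle was sequenced, so fewer cells of a type and less RNA per cell cannot be told apart.

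**Figure D3:**
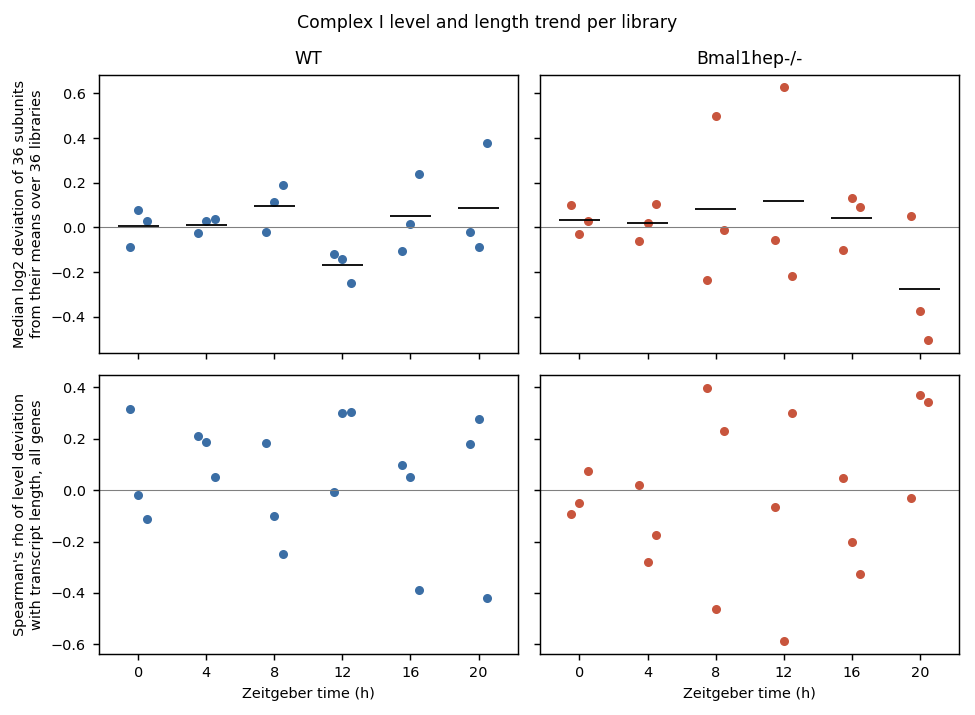
Upper panels: median log2 deviation of the 36 subunits from their means over all libraries, 1 point per library, with the group mean as a line. Lower panels: the length trend of the same libraries. The highest complex I library, Bmal1hep-/- ZT12 replicate 2 at 0.63, has the lowest trend, and Bmal1hep-/- ZT20 replicates 2 and 3, at -0.37 and -0.51, have trends above 0.3.

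The sources of spread in the libraries were kept in view for the comparisons. There were 6 libraries that stood apart: Bmal1hep-/- ZT12 replicate 2 and ZT8 replicate 2 by length trend, WT ZT8 replicate 3 by hepatocyte markers, Bmal1hep-/- ZT4 replicate 1 and ZT20 replicate 3 by adipocyte markers, and Bmal1hep-/- ZT16 replicate 3 by the skeletal actin gene Acta1 listed at 0. These were named with earlier results known and by no fixed limit. WT ZT12 replicate 1 is not among them, although its summed Schwann cell markers were 615 FPKM, against a WT median of 92.5; without it the median ZT12 difference of the 38 given below was 0.35. The relative depth of the shallowest library was 57.9% of that of the deepest. All 36 libraries held fast fibre markers at a high level in sum, from 57909 to 115407 FPKM, but single markers were uneven. The mean log2 deviation of the list was 1.26 in WT ZT12 replicate 1 and 1.38 in Bmal1hep-/- ZT4 replicate 3. The next highest was 0.24, in Bmal1hep-/- ZT12 replicate 2. Myh4, a fast myosin of the list, had a genotype difference of 0.0089 ± 1.01 (SE, log2).

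Averaged over the 6 times, no complex I mRNA passed the threshold for a difference between genotypes in limma's moderated test on log2(FPKM + 1). Of the 38 genes, 0 passed an adjusted p of 0.05 (Benjamini-Hochberg over all genes; 0% of the 10837 genes did). At an unadjusted p under 0.05 there was 1 gene, Ndufb4, against 8.37% of all genes. The difference (Bmal1hep-/- minus WT) was above 0 for 16 and below 0 for 22, with a median of -0.019 on the log2 scale, beside -0.0028 over all genes tested, of which 51.6% were lower. For 22 of the 38 the 95% interval of the difference lay within 0.25 on the log2 scale of 0, and the interval typically reached 0.16 to either side of the estimate (median over the 38).

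Ndufb4, a distal membrane arm subunit, ranged over the WT libraries from 522 to 972 FPKM (median 693) and over Bmal1hep-/- from 500.3 to 1186 (median 769). All 3 Bmal1hep-/- libraries lay above all 3 WT libraries at ZT0, ZT4, ZT8 and ZT12. The same held for 6.55%, 6.98%, 2.41% and 4.39% of all genes at those times. The groups overlapped at ZT16 and ZT20. At ZT8 the margin was narrow: the lowest Bmal1hep-/- value of Ndufb4 was 758.8 FPKM and the highest WT value 757.7. Its difference was 0.19 ± 0.07 (SE, log2; 95% interval 0.057 to 0.33), and its limma p was 0.0071, or 0.351 adjusted. With the length trend removed the difference was 0.18 ± 0.04, with an adjusted p of 0.0977 by limma.

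The next smallest p-values belonged to Ndufs1 (-0.098 ± 0.050, SE, log2; adjusted p 0.616 by limma), Ndufa4 (0.12 ± 0.07; 0.677), Ndufa11 (-0.12 ± 0.08; 0.711) and Ndufb11 (-0.18 ± 0.12; 0.713). Ndufb11, an X-linked distal membrane arm subunit, ranged from 260.2 to 392 FPKM in WT and from 137 to 479 in Bmal1hep-/-, so the WT libraries lay inside the Bmal1hep-/- range. The core subunits gave small differences of both signs. The N module was lower for 3 of 3, with values from -0.098 to -0.022, and the Q module was higher for 3 of 4, with values from -0.016 to 0.079, and 0 of these 7 passed the test.

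At single times the signs of the differences were alike across genes, and again 0 of 38 passed an adjusted p of 0.05 at any time (0% of all genes at each). At ZT12, 2 of 38 were lower in Bmal1hep-/- (53.2% of all genes) and 36 higher, with a median difference of 0.34 on the log2 scale, beside a median of -0.015 over all genes. At ZT20, 37 of 38 were lower (49.5% of all genes), with a median of -0.32, beside 0.0024. The other times were mixed. The counts lower were 16 of 38 at ZT0 (47.5% of all genes), 18 at ZT4 (50.4%), 25 at ZT8 (54% of all genes) and 20 at ZT16 (46.1%), with medians between -0.065 and 0.014. Unadjusted p-values under 0.05 were found for 8 of 38 at ZT12 (7.25% of all genes) and 13 of 38 at ZT20 (12.6%). At ZT4 there was 1 (9.06%), and at ZT0, ZT8 and ZT16 there were 0 (2.2%, 3.08% and 2.45%).

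How often replicates separated completely was also counted. All Bmal1hep-/- libraries lay above all WT libraries for 8 of 38 genes at ZT12 (4.39% of all genes), 4 at ZT4 (6.98%), 1 at ZT0 (6.55%) and 1 at ZT8 (2.41%), and for 0 at ZT16 (5.48%) and ZT20 (4.63%). They lay below for 4 at ZT20 (6.52% of all genes), 2 at ZT4 (8.37%) and 1 at ZT16 (3.96%), and for 0 at ZT0 (5.79%), ZT8 (4.13%) and ZT12 (4.41%). Complete separation upwards stood at 8 genes at ZT12 and at no more than 4 at any other time or in the other direction. Besides those named below, the genes were Ndufb4 at ZT0, ZT4 and ZT8, Ndufa4, Ndufc1 and Ndufs7 above at ZT4, Ndufs6 and Ndufb3 below at ZT4, and Ndufs1 below at ZT16.

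The median ZT12 difference rested mostly on 1 library, though this does not hold for every gene, since 8 of 38 separated completely. In WT the median deviations of the subunits were -0.12, -0.14 and -0.25 on the log2 scale at ZT12, and in Bmal1hep-/- they were -0.054, 0.63 and -0.22. The highest is replicate 2, the library with the strongest fall of levels with length, and the other Bmal1hep-/- libraries lay close to WT. Without it the median ZT12 difference was 0.037 and 16 of 38 were lower, and with the length trend removed it was 0.065 with 11 lower. The summed hepatocyte markers, all 4 of them higher in WT at this time, were 12.0, 19.3 and 12.4 FPKM in WT and 0.927, 2.47 and 3.93 in Bmal1hep-/-, and their part in the difference was not tested. Replicate 2 of Bmal1hep-/- also had a high erythroid sum (465 FPKM), the lowest fibroblast sum of the 36 libraries (172) and the highest fast fibre sum (115407). All 4 Schwann cell markers (median -0.71 on the log2 scale) and all 5 fibroblast markers (-0.31) were lower in Bmal1hep-/- at ZT12. The Schwann cell sums were 615, 56.7 and 83.9 FPKM in WT and 60.8, 79.9 and 126 in Bmal1hep-/-, so only WT replicate 1 was high. Of the adipocyte, erythroid and fast fibre markers 1 of 7, 1 of 4 and 3 of 9 were lower (medians 0.56, 0.28 and 0.18). The part of all these lists in the difference was not tested.

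Of the 8 genes with complete separation at ZT12, Ndufa3 had 721, 907 and 923 FPKM in WT and 1737, 2847 and 994 in Bmal1hep-/-. Its log2 difference at ZT12 was 1.01 ± 0.39 (SE; adjusted p 0.686 by limma), and 0.64 with the length trend removed. Ndufs5, an intermembrane space subunit, had 180, 342 and 320.1 FPKM in WT and 413, 700.4 and 349.5 in Bmal1hep-/-, a difference of 0.78 ± 0.24 (adjusted p 0.686 by limma). Ndufb4 had 609.6, 598.5 and 522 FPKM in WT and 816, 1186 and 736 in Bmal1hep-/-, a difference of 0.63 ± 0.16, and its unadjusted p of 0.00055 was the smallest of the 38 at any time (adjusted p 0.686 by limma). The groups do not overlap for these genes, and replicate 2 was the highest of the Bmal1hep-/- libraries for each. The others of the 8 were Ndufa4, Ndufa5, Ndufb3, Ndufb7 and Ndufc2.

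The ZT20 difference came from libraries of both genotypes. In WT the median deviations at ZT20 were -0.023, -0.087 and 0.38 on the log2 scale, and in Bmal1hep-/- they were 0.051, -0.37 and -0.51. WT replicate 3 is high and Bmal1hep-/- replicates 2 and 3 are low, while the other libraries of both genotypes lay near 0. The median difference was -0.18 without WT replicate 3 and -0.54 without Bmal1hep-/- replicate 1, and -0.13 with the length trend removed, where 35 of 38 were lower.

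Ndufa12, a matrix arm subunit, had 569.8, 540.5 and 703 FPKM in WT at ZT20 and 577, 231 and 268 in Bmal1hep-/-. The first Bmal1hep-/- library lay within the WT range and the other two below it. Its log2 difference was -0.86 ± 0.26 (SE; adjusted p 0.354 by limma), and -0.71 with the length trend removed. Ndufb10, a distal membrane arm subunit, had 462, 431 and 608 FPKM in WT and 457, 239.8 and 232 in Bmal1hep-/-, of which again the first lay within the WT range and the other two below it (-0.75 ± 0.26; adjusted p 0.354). Without Bmal1hep-/- ZT20 replicate 1, Ndufa12, Ndufb10 and Ndufb11 passed an adjusted p of 0.05 at ZT20, leaving 2 libraries in that group, in a fit that called 3.06% of all genes at that time. With all libraries, the 4 genes with every Bmal1hep-/- library below every WT library at ZT20 were Ndufa4, Ndufb2, Ndufs5 and Ndufa4l2.

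Markers of fat were uneven at the same time. The summed adipocyte markers at ZT20 were 311, 392 and 488 FPKM in WT and 559, 359 and 1306 FPKM in Bmal1hep-/-, and their part in the ZT20 difference was not tested. Lower in Bmal1hep-/- at ZT20 were 4 of 4 erythroid markers (median -1.16 on the log2 scale), 4 of 4 hepatocyte (-0.76), 4 of 4 Schwann cell (-0.44) and 8 of 9 fast fibre markers (-0.22). Of the macrophage, fibroblast and adipocyte markers 0 of 5, 0 of 5 and 0 of 7 were lower (medians 0.54, 0.34 and 1.41), and the part of these lists was not tested either. All 7 adipocyte markers had a positive mean difference between genotypes over the 6 times (median 0.47 on the log2 scale), with 0 of 7 past the adjusted threshold. At ZT8, however, 6 of 7 were lower (median -0.86), against 0 or 1 at the other times. The highest sums were 1834 FPKM in Bmal1hep-/- ZT4 replicate 1 and 1306 in ZT20 replicate 3. The medians of the sums were 460 in Bmal1hep-/- and 398 in WT. All 7 slow fibre markers had negative mean differences (median -0.21), also with 0 of 7 past the adjusted threshold.

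**Figure D4:**
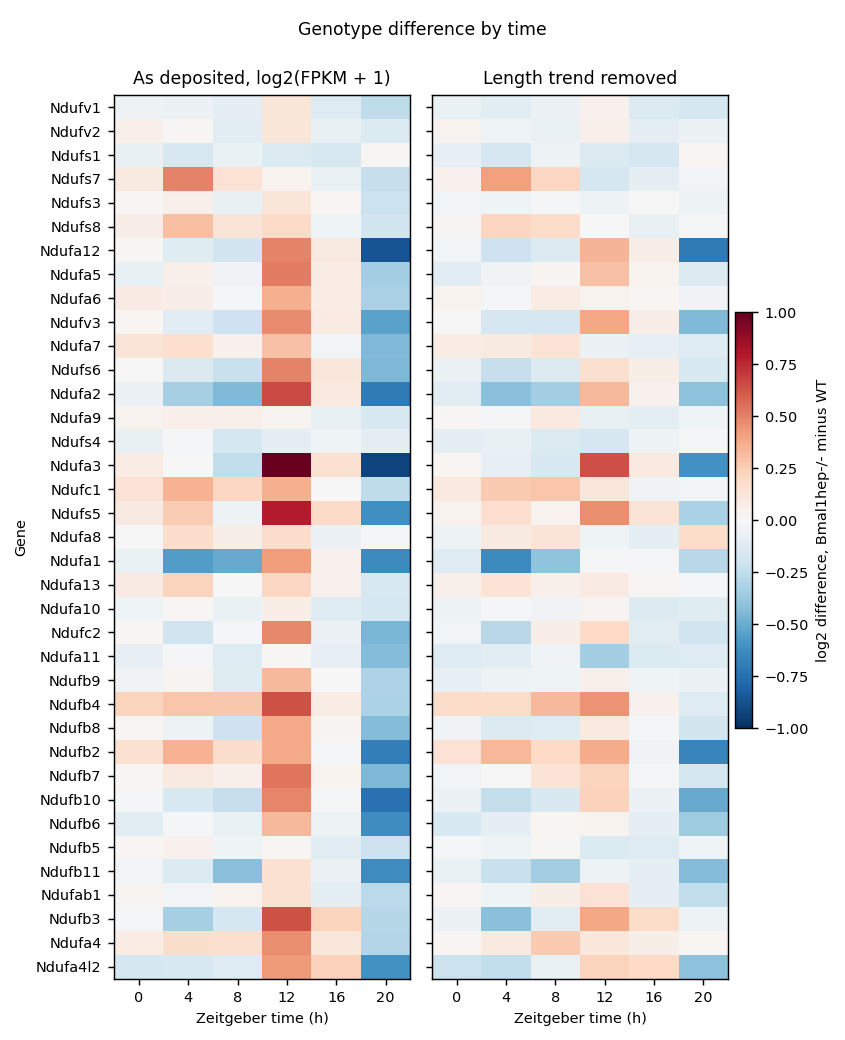
Log2 difference (Bmal1hep-/- minus WT) of 37 of the genes at each zeitgeber time, as deposited (left) and with the length trend of each library removed (right). Red is higher in Bmal1hep-/- and blue is lower, and colours are limited at 1. The red column at ZT12 (median 0.34 over all 38) and the blue column at ZT20 (median -0.32) are paler on the right (0.065 and -0.13).

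Whether genotype differences varied with time was tested as a genotype by time interaction. It passed for 0 of 38 (0% of all genes) and had an unadjusted p under 0.05 for 4 (4.64% of all genes), which were Ndufb4 (0.012), Ndufs5 (0.013), Ndufa12 (0.033) and Ndufa3 (0.046), each with an adjusted p of 0.899 by limma. All 4 have their highest difference at ZT12 and their lowest at ZT20.

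A 24 h rhythm, fitted as a cosine per genotype, passed for 0 of 38 genes in WT (6.03% of all genes), 0 in Bmal1hep-/- (5.47%) and 0 in the mean of both (12.4%). In the same libraries 11 of 11 core clock genes passed in each genotype. The amplitude, from mean to peak, ran over the 38 from 0.010 to 0.34 on the log2 scale in WT and from 0.028 to 0.21 in Bmal1hep-/-. It was under 0.25 for 33 and for 38. Its median was 0.11 in WT and 0.13 in Bmal1hep-/-, above the 0.088 and 0.091 over all genes tested. Unadjusted p-values under 0.05 were found for 3 in WT (16.8% of all genes) and 1 in Bmal1hep-/- (16.3%), and for 0 in the mean of both (23% of all genes).

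Ndufb3, an accessory subunit of the distal membrane arm, had the smallest p in WT. In WT its ZT0 mean was 230.1 ± 21.3 FPKM (SD, n = 3). It was 229 ± 13.8 at ZT4 and 239 ± 21.2 at ZT8, then 129 ± 16.2 at ZT12, and was 192 ± 52.0 and 204 ± 35.9 at ZT16 and ZT20. The low time was ZT12, where the 3 libraries had 146, 114 and 127 FPKM. Its WT amplitude was 0.32 ± 0.11 (SE, log2), with a peak at 1.85 h and an adjusted p of 0.153 by limma. In Bmal1hep-/- the amplitude was 0.048 ± 0.11 (adjusted p 0.970), and the test of the rhythm difference gave 0.075 unadjusted and 0.913 adjusted by limma. The WT rhythm passed with the length trend removed (adjusted p 0.0144 by limma; 7.70% of all genes passed), without the 6 libraries that stood apart (0.0415; 6.55% of all genes) and with quantile normalization (0.0369; 6.58% of all genes).

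Ndufs7 had its higher WT means from ZT12 to ZT20. From ZT0 to ZT8 the means were 640.1 ± 109, 601 ± 37.96 and 666 ± 61.8 FPKM (SD, n = 3). From ZT12 to ZT20 they were 796 ± 10.7, 757 ± 99.0 and 792 ± 167. It was highest at ZT12, where 22 of the 36 subunits were lowest. The WT amplitude was 0.20 ± 0.07 (SE, log2) with a peak at 15.5 h and an adjusted p of 0.188 by limma, which became 0.0322 with the length trend removed. At ZT4 it had 558.5, 612 and 632 FPKM in WT and 645, 983.5 and 961 in Bmal1hep-/-, a difference of 0.50 ± 0.17 (adjusted p 0.440 by limma). This difference passed the adjusted threshold without the 6 libraries that stood apart, which leaves 2 Bmal1hep-/- libraries at ZT4, the ones with 983.5 and 961 FPKM. That fit called 1.06% of all genes at ZT4.

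Ndufa4l2 was low throughout. In WT it had 17.4, 13.4 and 10.6 FPKM at ZT0 and 10.03, 7.92 and 9.47 at ZT12. These are the times of its highest and lowest WT means, picked from the same values. That their libraries did not overlap is therefore no test of a rhythm. The WT amplitude was 0.29 ± 0.10 (SE, log2) with a peak at 1.88 h and an adjusted p of 0.166 by limma. In Bmal1hep-/- it was 0.18 ± 0.10, with an adjusted p of 0.551.

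**Figure D5:**
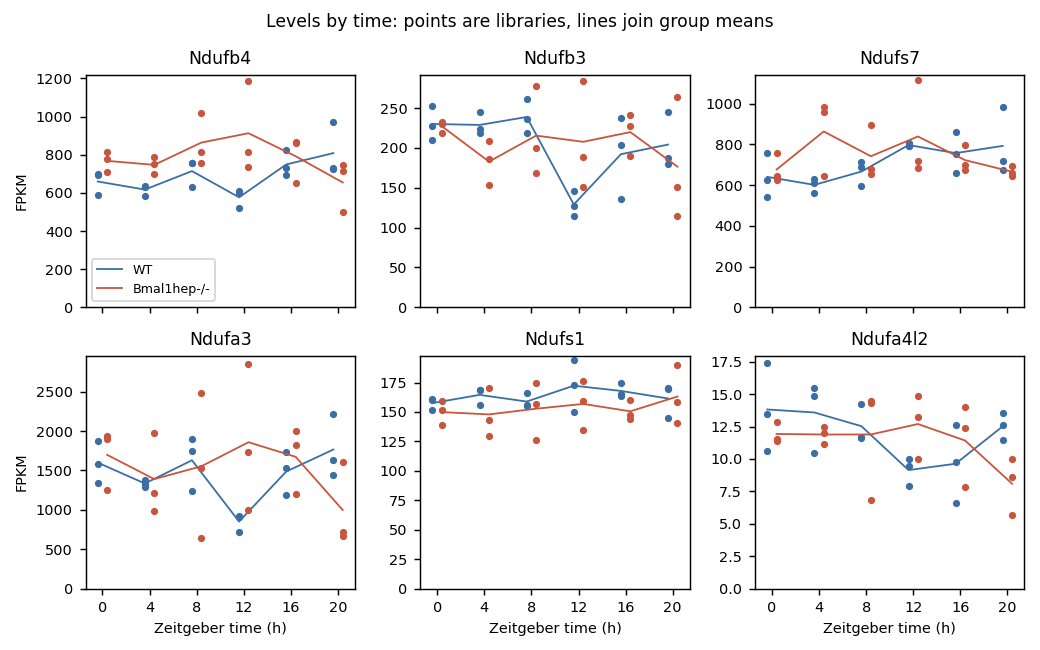
FPKM of 6 genes by zeitgeber time, with points for libraries and lines through the means of 3 replicates, WT in blue and Bmal1hep-/- in red. In WT, Ndufb3 and Ndufa3 dip at ZT12 and Ndufs7 does not. The Bmal1hep-/- points of Ndufb4 lie above those of WT from ZT0 to ZT12, narrowly at ZT8, and the means of Ndufs1 are nearly flat.

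In Bmal1hep-/- the smallest p-values of the rhythm test belonged to Ndufb4 (amplitude 0.18 ± 0.07, SE, log2; peak 9.86 h; adjusted p 0.302 by limma), Ndufa11 (0.16 ± 0.07; 8.21 h; 0.437) and Ndufa7 (0.17 ± 0.08; 7.85 h; 0.444). Fitted peaks lay between 6 and 12 h for 37 of 38 genes in Bmal1hep-/- and for 3 of 38 in WT. In WT, 24 lay between 18 h and 6 h. The shares of all genes with peaks in these windows were not counted, so no trait particular to complex I follows. The genes share libraries, so these peaks are not separate observations, and Bmal1hep-/- ZT8 replicate 2 and ZT12 replicate 2 are the highest libraries of that genotype. By group means, 22 of 36 subunits were lowest at ZT12 in WT (22.9% of all genes) and 34 of 36 at ZT20 in Bmal1hep-/- (27.3% of all genes).

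A difference in rhythm between genotypes passed for 0 of 38 (0% of all genes). Unadjusted p-values under 0.05 were found for 3 (4.01% of all genes), Ndufb4 (0.018), Ndufs7 (0.031) and Ndufa4 (0.040), each with an adjusted p of 0.913 by limma. Ndufa4, for example, had fitted peaks at 20.2 h in WT and 10.9 h in Bmal1hep-/-, with amplitudes of 0.14 ± 0.07 and 0.13 ± 0.07 (SE, log2).

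The rest of the respiratory chain gave similar counts in the genotype average. In assembly factors of complex I 0 of 15 passed, in complexes II and III 0 of 14, in complex IV 0 of 12 and in ATP synthase 0 of 15. The medians were -0.023, -0.032, -0.038 and -0.057 on the log2 scale. At ZT20 the numbers lower in Bmal1hep-/- were 12 of 15, 12 of 14, 12 of 12 and 15 of 15 (49.5% of all genes). At ZT12 they were 5, 1, 0 and 1 (53.2% of all genes). The same signs prevailed in complexes II and III, complex IV and ATP synthase as in complex I. Their medians were 0.15, 0.38 and 0.21 at ZT12 and -0.34, -0.37 and -0.34 at ZT20. These values come from the same libraries as those of complex I, so they are not separate observations. For these lists no medians are given without single libraries or with the length trend removed. The assembly factors had medians of 0.087 at ZT12 and -0.11 at ZT20, closer to 0 than the subunits. They are less abundant and are not built into the enzyme. The part of abundance or transcript length in their smaller differences was not tested.

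Single genes of these lists are given as values. Cox7b of complex IV had a difference of -0.20 ± 0.07 (SE, log2; adjusted p 0.379 by limma), Atp5a1, the alpha subunit of ATP synthase, -0.093 ± 0.038 (0.472) and Sdha, the flavoprotein of complex II, -0.095 ± 0.043 (0.553). Among 11 regulators of respiratory chain genes, Perm1, a muscle partner of PGC-1 and ERR, had -0.17 ± 0.05 (0.244). In the rhythm test 1 of 15 assembly factors passed in WT, beside 6.03% of all genes. It was Tmem186 (amplitude 0.16, peak 5.15 h, adjusted p 0.0470 by limma). Of the 11 regulators 1 passed in each genotype, beside 6.03% and 5.47% of all genes. It was the corepressor Nrip1 (amplitudes 0.58 and 0.59, adjusted p 0.0023 and 0.0020 by limma).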

How the data were processed

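Polyadenylated RNA was copied from random hexamers and sequenced, per the labels' protocols. The authors deposited 1 table of FPKM for 36 libraries, with a row for each gene symbol. FastQC 0.11.8, STAR and the builds mm10 and GRCm39 are named in the submitters' processing notes; no tool for FPKM and no annotation is given there. Read totals are unknown, so no counting interval is given; low values gave relative depths from 57.9% to 100% of the deepest library (92.5% of library pairs within 0.05 on the log2 scale). No 2 libraries were identical (0 pairs).

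The 10837 of 24319 symbols with a mean of at least 1 FPKM were analysed as log2(FPKM + 1), so fold changes are on that scale. limma 3.58.1 in R 4.3.3 (eBayes with trend and robust) was fitted to 12 group means for genotype differences and their interaction with time, and to a mean, cosine and sine of 24 h period per genotype for rhythms. The Benjamini-Hochberg adjustment ran over the 10837 genes, and calls were made at 0.05. The code was tested on simulated data. The labels call the samples biological replicates and name no animals, so p-values measure the spread between these samples. Replicate numbers did not pair the samples.

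Transcript lengths (GENCODE M21, 10466 of the tested genes) were used to remove a smooth trend with length from each library. Each is the median over the principal transcripts of a gene, or over its best-annotated ones where none is principal. Another annotation behind FPKM would shift them. Promoters came from RefSeq (GRCm38.p6), matched by symbol, used for sequence only.

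The members, lists, tests and alternatives were chosen with earlier results of these data known. All 38 genes were counted, and the values of 1 of them are not reported here. Values were printed for the smallest p-values of each test (5 in the genotype average, 3 over the 6 single times together, 3 in each rhythm test and, for the interaction, all 4 with an unadjusted p under 0.05), the 3 highest and lowest levels, the 3 largest and smallest SD, the core subunits, Ndufa4 and Ndufa4l2, and up to 3 genes of each other list; other genes are named where groups did not overlap or a test was passed. Scripts ran in Python 3.11.15 (pandas 2.3.3, numpy 2.4.6, matplotlib 3.10.9).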

Additional observations from a re-analysis of the deposited data

How the results depend on the processing

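Under median-of-ratios rescaling, a pseudocount of 0.1, no filter, and a filter at 5 FPKM, the counts of complex I genes called stayed at 0, as did the rhythm counts with time as a factor and in fits on 1 genotype (smallest WT adjusted p 0.0506 by limma). Genes rhythmic in WT numbered 1 with quantile normalization (Ndufb3), 2 with array weights (Ndufb3 and Ndufa4l2), 2 with the length trend removed (Ndufb3 and Ndufs7) and 1 without the 6 libraries that stood apart (Ndufb3), beside 6.58%, 12.2%, 7.70% and 6.55% of all genes. Genes differing at a single time numbered 1 with array weights (Ndufb4 at ZT12, 0.258% of all genes) and 1 without those 6 libraries (Ndufs7 at ZT4), and from 0 to 3 on leaving out each library in turn, the 3 arising without Bmal1hep-/- ZT20 replicate 1. The cause was not tested. The median genotype difference ran from -0.054 to 0.0022 over those fits. At ZT12 the median difference ran from 0.037 to 0.53 and at ZT20 from -0.54 to -0.18; with quantile normalization they were 0.071 and -0.078.

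Array weights were computed gene by gene, since the restricted maximum likelihood method did not converge; over all genes they gave 1320 genes rhythmic in WT and 908 in Bmal1hep-/-, against 654 and 593, and 32 in the genotype average against 0. Without the 6 libraries 383 genes were called in Bmal1hep-/-. Time as a factor gave 334 and 335.

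Same-numbered replicates of the genotypes did not deviate together (mean r -0.009 over 18 pairs, from -0.23 to 0.18, with 5 correlating best with their own number). With the replicate number as a block the counts of complex I genes called in the genotype average, at single times and in the rhythm tests were 0, and over all genes 672 were rhythmic in WT and 581 in Bmal1hep-/-. With 3 libraries per group, single-time differences of complex I genes are limited by their spread, which is above that of most genes.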

Other observations

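With the length trend removed, 9 of 38 complex I genes had an unadjusted p under 0.05 in the genotype average, against 1 before. The share of all genes with a length in that fit was 10.01%. Lower in Bmal1hep-/- were Ndufa11, Ndufa1, Ndufb11, Ndufv1, Ndufs1 and Ndufb10, and higher were Ndufb4, Ndufc1 and Ndufa4. The adjusted threshold was passed by 0 (smallest adjusted p 0.0977, Ndufb4, by limma). Unadjusted p-values under 0.05 for a rhythm went from 3 to 6 in WT and from 1 to 3 in Bmal1hep-/-, both below the share of all genes in that fit (19.9% and 18.2%). After removal the library medians of the subunits still went with the original length trend (Pearson's r -0.63 over 36 libraries).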
